A study of Mus musculus with 12 samples.

Results

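Lysosomal hydrolases, lysosomal membrane proteins and their regulator Tfeb were followed in the ileum, which ends the small intestine, of suckling mouse pups. The set holds 36 genes, chosen by symbol from the 35275 genes of the deposited count table, and all 36 were found there. Total RNA of ileum was sequenced in 12 libraries from C57BL/6 pups on postnatal day 14. The pups came from 6 dams, each of which gave 1 male and 1 female pup. Restraint in a tube, 2 h daily on gestational days 7 to 19, was given to 3 of these dams, while 3 stayed in their home cages. The 4 groups of 3 pups are called stressed males, control males, stressed females and control females. The word stressed describes the dam, since no pup was treated, and the number of a pup is that of its dam within the stressed or the control dams, so that male 1 and female 1 of a group are littermates. No allele or other agent is named for any group. The question put to these data is whether the ileal transcriptome of offspring differs after restraint of the pregnant dam.

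The lysosome is the acidic compartment in which cells break down material taken up from outside or delivered by autophagy. Soluble hydrolases are tagged with mannose 6-phosphate, delivered to it and activated at low pH, while heavily glycosylated membrane proteins line its wall and transporters and channels let products and ions out. In the ileum of suckling rodents the enterocytes carry very large lysosomal vacuoles that take up and digest milk proteins inside the cell, and these vacuoles are lost at weaning. The transcription factor TFEB binds E-box letters in the promoters of many lysosomal genes, where they form part of the so-called CLEAR element, and nutrient signalling through mTORC1 keeps it out of the nucleus.

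Promoter sequences are shown first because the E-box, CACGTG, is part of the CLEAR element. The genes were chosen by symbol, and whether that choice was independent of known TFEB targets was not tested. RefSeq windows of the GRCm38.p6 build, reaching from 250 bases before to 50 bases after a gene's start, were held for 32 of the 36 genes. Npc1, Ctsh, Asah1 and Ctsb had none. CACGTG, which reads the same on both strands, occurred in 11 of these 32 genes (34.4%), against 8.09% of all 27025 genes with a window. The longer form TCACGTGA, which contains CACGTG, occurred in 5 genes (15.6%, against 1.12% of all genes). The CLEAR consensus palindrome, with G before and C after these letters, occurred in Cln3 alone (3.13%, against 0.370% of all genes). The windows of the 5 genes with TCACGTGA are given with those of Lamp1, which holds 4 E-boxes within 90 bases, and of Glb1, one of the most variable genes. Each sequence has 90 bases, runs 5′ to 3′ on the strand of its gene, and has CACGTG in capitals. Their places are Ctsa chr2:164833683-164833772 (plus strand), Cln3 chr7:126583324-126583413 (minus strand), Ctsd chr7:142387878-142387967 (minus strand), Mcoln1 chr8:3500429-3500518 (plus strand), Gla chrX:134601166-134601255 (minus strand), Lamp1 chr8:13159071-13159160 (plus strand) and Glb1 chr9:114400988-114401077 (plus strand).
Ctsa: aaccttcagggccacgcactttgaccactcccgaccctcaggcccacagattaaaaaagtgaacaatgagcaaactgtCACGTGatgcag
Cln3: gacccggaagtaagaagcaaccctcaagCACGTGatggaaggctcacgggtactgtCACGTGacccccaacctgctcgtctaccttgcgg
Ctsd: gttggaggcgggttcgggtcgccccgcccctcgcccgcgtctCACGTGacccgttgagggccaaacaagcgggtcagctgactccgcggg
Mcoln1: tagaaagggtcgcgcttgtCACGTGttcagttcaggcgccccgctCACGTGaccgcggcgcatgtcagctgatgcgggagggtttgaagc
Gla: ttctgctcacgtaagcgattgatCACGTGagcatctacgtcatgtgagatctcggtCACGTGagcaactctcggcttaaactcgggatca
Lamp1: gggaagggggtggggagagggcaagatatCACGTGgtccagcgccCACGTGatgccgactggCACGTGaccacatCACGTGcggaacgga
Glb1: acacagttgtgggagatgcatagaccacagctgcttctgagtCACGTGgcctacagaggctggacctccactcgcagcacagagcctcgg
The other genes with CACGTG were Naglu, Gaa, Sgsh and Ctsl. Npc2, Hexa and Galc, which like Glb1 were among the most variable genes in males, had a window without CACGTG. A match describes the letters of the window and not binding, and a window without one says only that these letters are not in it.

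Library totals were 16423523 to 22975526 counted reads, and the largest male library held 20075567, fewer than the smallest female library with 20730243. 3 libraries, stressed males 1 and 3 and control male 1, had 1.39%, 4.13% and 1.00% of their counts on the gene annotated as Yam1, against 0.171% to 0.4998% in the other 9. In stressed males 1 and 3 mitochondrial genes took 2.18% and 1.16% of counts, against 3.01% to 4.59% elsewhere, and the deviation of a gene from its mean over 12 libraries was positively related to its length (Spearman rho across genes 0.457 and 0.502, against -0.481 to 0.322 in the other libraries). Ileal enterocyte genes (Fabp6, Slc51a, Fgf15 and 2 others) summed to between 366 and 1340.3 CPM, that is, counts scaled to library size by TMM. Both pups of control dam 3 stood apart by genes of the upper small intestine (Lct, Fabp1, Gata4 and Onecut2), which summed to 6798 CPM in its male pup and 2538 CPM in its female pup, where the other 10 libraries had 158 to 514 CPM. In control male 3 the ileal bile acid binding protein gene Fabp6 was at 0.716 CPM, against 29.9 CPM or more elsewhere. The ileal enterocyte genes as a list summed to 413 CPM in control male 3, above stressed male 3 with 366 CPM, and to 789 CPM in control female 3. Their median deviation from the mean of 12 libraries was -1.78 log2 units in control male 3 and 0.36 in control female 3. All 12 libraries are labelled ileum, and whether these 2 of the 6 control libraries hold another stretch of gut was not tested. For Ctsl, Galc, Lipa, Npc2, Ctsa, Ctsb, Ctsd, Ctsh, Lamp1, Fuca1 and Sgsh, values without some of these libraries are given as well.

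The lysosomal genes ranged from some of the most abundant transcripts of the tissue to a few FPKM (fragments scaled to gene length and library total). By mean FPKM, which allows for gene length, Ctsl led with 688 ± 355 (SD, n = 12 libraries) and was 70th of all genes. Ctsz followed with 610 ± 153, Lamp1 with 583 ± 121, Ctsb with 478 ± 94.6, Hexa with 464 ± 155 and Fuca1 with 373 ± 89.9 FPKM. These 6 genes encode 3 cysteine proteases, the chief glycoprotein of the lysosomal wall, the alpha subunit of beta-hexosaminidase and an alpha-fucosidase, and their ranges over the libraries overlapped. Psap, Ctsd and Ctsa lay between 308 and 323 FPKM, and Neu1 at 233 ± 50.6 FPKM. At the low end were Idua with 2.71 ± 0.517, Sgsh with 4.14 ± 0.836, Arsb with 7.83 ± 1.32, Npc1 with 8.66 ± 1.23 and Ids with 9.29 ± 1.01 FPKM, so that 4 of the 5 lowest genes degrade glycosaminoglycans. Tfeb itself stood at 19.8 ± 1.81 FPKM. The 36 genes together took 0.876% of all counts in stressed male 3 and 1.93% in control female 3, with the other libraries between.

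**Figure D1:**
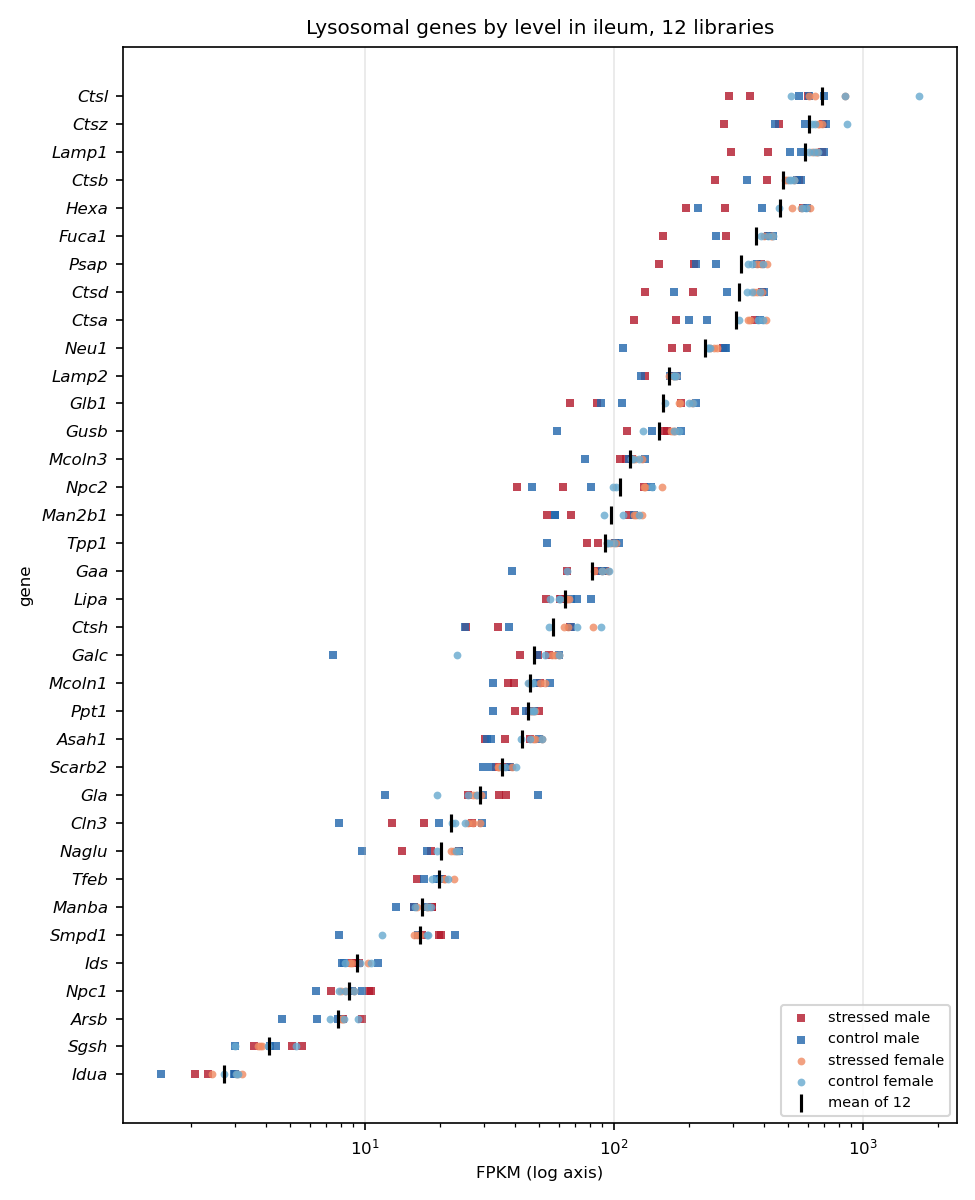
FPKM on a log axis of each of the 36 lysosomal genes (rows, ordered by mean) in each of the 12 libraries. Squares are males and circles females, red tones stressed and blue tones control, and the black bar is the mean of 12. The genes run from Ctsl at a mean of 688 FPKM to Idua at 2.71 FPKM, and the points far to the left of their row are male libraries, besides Galc in control female 3.

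Most lysosomal genes had their lowest value in 1 of 2 males, 1 stressed and 1 control. Relative to the mean of 12 libraries the median lysosomal gene lay at -0.17, 0.12 and -0.29 on the log2 scale in stressed males 1, 2 and 3, against -0.01, 0.21 and -0.37 in control males 1, 2 and 3. In females it lay at 0.13, 0.13 and 0.08 in the stressed group, against 0.09, 0.06 and 0.12 in the control group. A low and a high male thus occurred on both sides, and 30 of the 36 genes had their lowest value in stressed male 3 (15 genes) or control male 3 (15 genes). These males shared 24 genes below their mean, among them Npc2, Hexa, Ctsd, Ctsh, Glb1 and Cln3. In stressed male 3, 8 genes lay more than 1 log2 unit below their mean, namely Glb1, Hexa, Fuca1, Ctsa, Ctsd, Ctsl, Ctsz and Npc2. In control male 3 these were Galc, Cln3, Gusb and Gla, with Galc at -2.33. Over all genes tested, 3.48% in stressed male 3 and 4.36% in control male 3 lay as far below their mean, against 0.317% to 4.30% in the other libraries. The share of all genes with their lowest value in these 2 males was not counted. Stressed male 1 shared much of the pattern of stressed male 3, with 22 genes below their mean in both and 8 above it in both (Gla, Manba, Galc, Sgsh, Arsb, Smpd1, Scarb2 and Npc1). The 8 genes low in stressed male 3 had a median gene length of 2262 bases, against 3188 for the other 28 and 3028 for all genes tested. That library was also one of those in which deviation moved with length, and the part of length or of RNA quality in the pattern was not tested. In bulk tissue fewer cells of a type and less RNA per cell cannot be told apart.

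**Figure D2:**
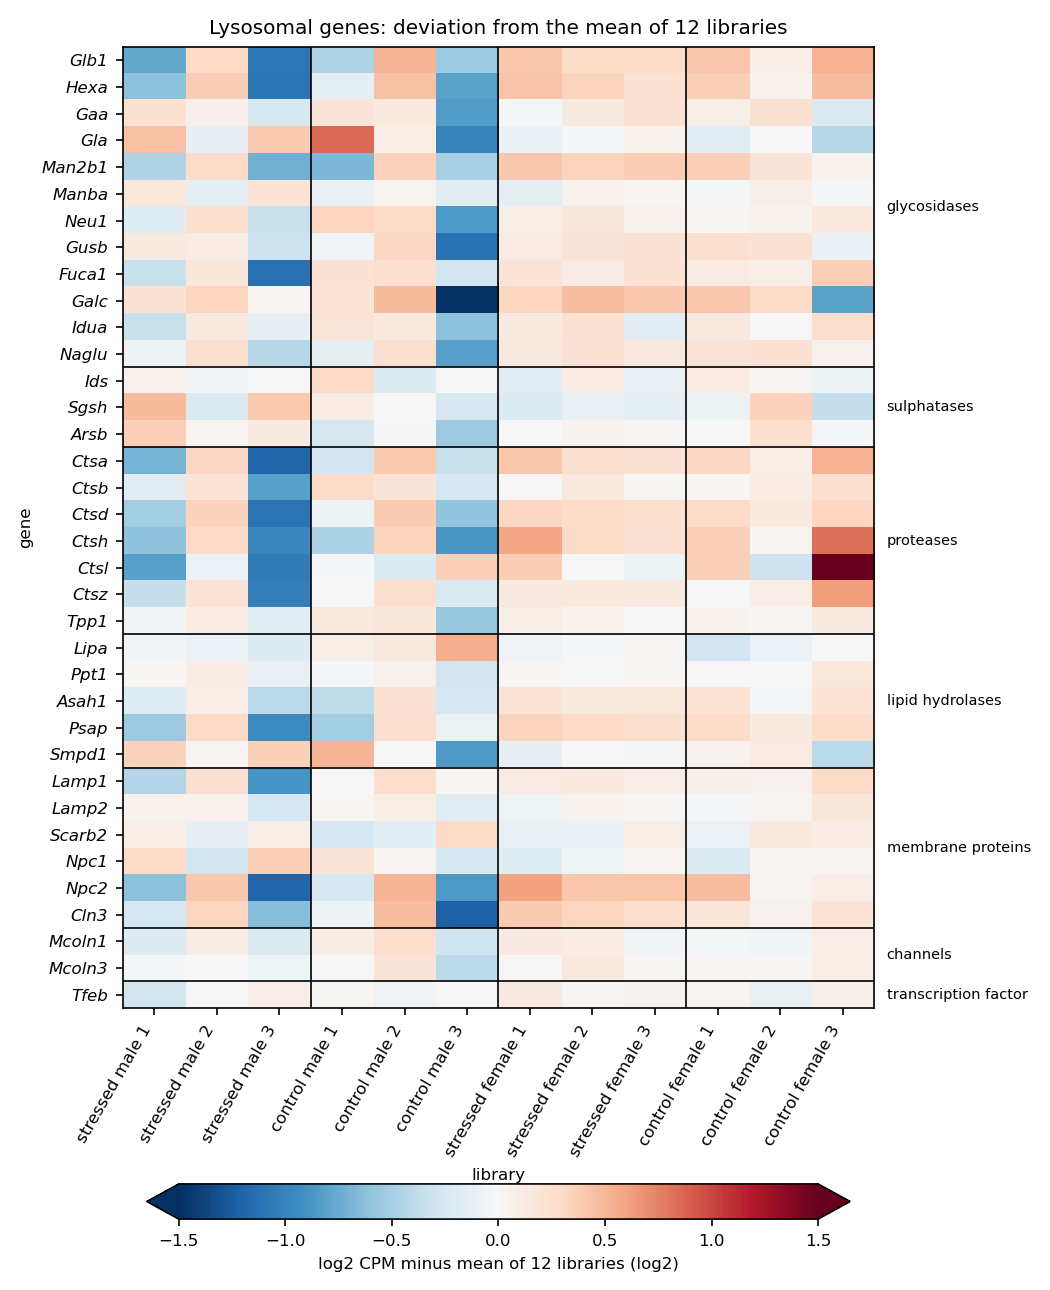
Deviation of each lysosomal gene (rows, by role) from its mean over 12 libraries (columns, log2 CPM, with stressed pups left of control pups in each sex, colours capped at 1.5). Blue fields fill stressed male 3 and control male 3, with 24 genes below their mean in both, while Galc in control male 3 (-2.33) is the lowest field and Ctsl in control female 3 the highest.

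No lysosomal gene passed the test for maternal stress in either sex. Stressed against control males gave 0 of 36 genes at an adjusted p under 0.05 (edgeR quasi-likelihood F test, Benjamini-Hochberg adjusted over 16102 genes), as it did for 0% of all genes tested, with 14 genes above and 22 below 0 and a median log2 fold change of -0.04, against 0.01 over all genes. The smallest adjusted p of a lysosomal gene was 0.752. Unadjusted p-values under 0.05 were found for 2 genes by edgeR, 2 by DESeq2 and 2 by limma on log2(FPKM + 1), where 6.38% of all genes reached that level by edgeR. The groups did not overlap for Arsb, higher in stressed males, and Lipa, lower in stressed males, which is 2 of 36 genes where 5.67% of all genes were so separated. Without the 3 libraries rich in Yam1 the male median became 0.22 and 6 of 36 genes lay below 0. That fit leaves stressed male 2, which is assumed to vary like the other groups, against control males 2 and 3. Control male 3, with high upper small intestine genes, was the lowest of 12 libraries for 15 genes. The male value took the other sign under at least 1 of the 23 alternatives for 33 of the 36 genes, the exceptions being Arsb, Lipa and Ctsl.

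Stressed against control females likewise gave 0 of 36 genes past the threshold by edgeR (0% of all genes), with 17 above and 19 below 0 and a median of -0.01, against -0.00 over all genes. No lysosomal gene had an unadjusted p under 0.05 by edgeR, DESeq2 or limma, where 0.298% of all genes did by edgeR. Only Cln3 had no overlap between the female groups, which 5.56% of all genes showed. The difference between the male and female changes also gave 0 of 36 genes by edgeR (0% of all genes), with a median of -0.06 and 2, 2 and 1 genes at an unadjusted p under 0.05 by edgeR, DESeq2 and limma (2.15% of all genes by edgeR). With the littermates summed, so that the dam is the replicate (3 against 3 dams, 16749 genes tested), 0 of 36 genes passed by edgeR (0% of all genes), 15 lay above and 21 below 0 and the median was -0.03, against 0.00 over all genes. Unadjusted p-values under 0.05 in the litters were found for 0, 1 and 0 genes by edgeR, DESeq2 and limma (1.36% of all genes by edgeR), and no gene separated the litters, where 5.71% of all genes did. The p-values for males, females and their difference come from 1 fit whose estimate of the spread is shared over all 12 libraries. Female p-values thus carry the spread of males. The within-group SD of the library medians of the lysosomal genes was 0.25 log2 units in males and 0.03 in females. With the 6 libraries of 1 sex alone, 0 lysosomal genes passed in either sex. The litter p-values measure the spread over 3 dams a group.

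**Figure D3:**
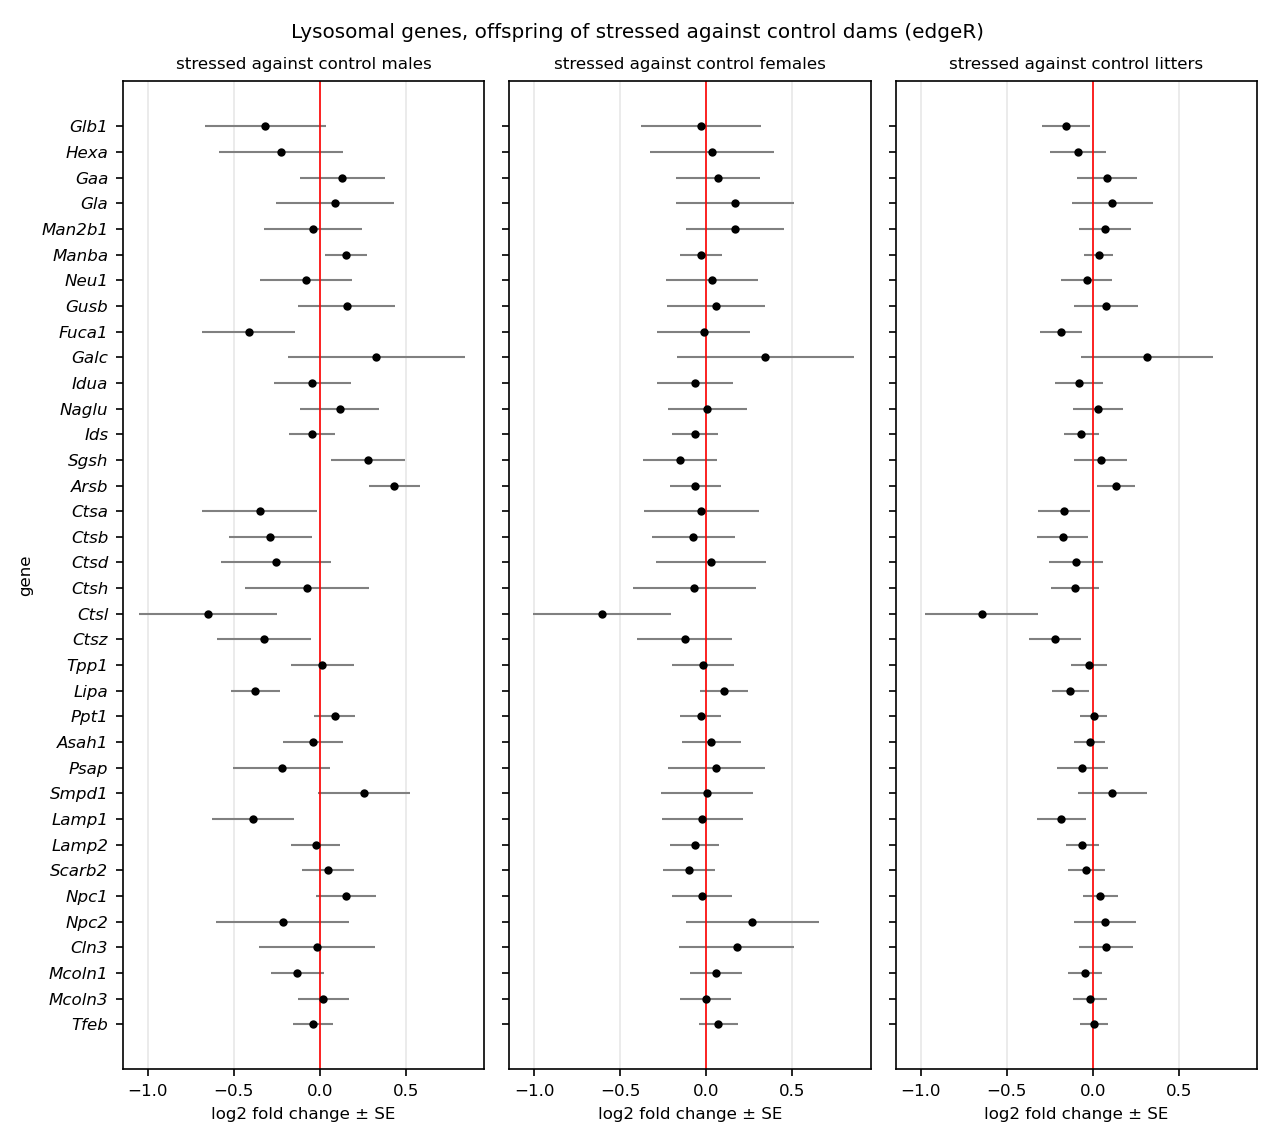
Log2 fold change with its standard error (edgeR) of each lysosomal gene in stressed against control males (left), females (middle) and summed litters (right), n = 3 each. Most bars cross the red line at 0, Arsb (0.43) and Lipa (-0.38) in males lie farthest from it in units of their error, and Ctsl lies lowest in all 3 panels.

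Among the proteases, Ctsl, the cysteine protease cathepsin L, had the lowest fold change of the set in males, females and litters. It had 702, 1159 and 594 CPM in stressed males, against 1202, 1071 and 1577 CPM in control males. In females it had 1584, 1228 and 1165 CPM in stressed females, against 1583, 991 and 3483 CPM in control females. The control female of 3483 CPM lay far above all other libraries, and the male groups overlapped. The log2 fold change of Ctsl was -0.65 ± 0.40 in males and -0.61 ± 0.40 in females, and over litters it was -0.65 ± 0.33 (edgeR adjusted p = 1.00). Without both pups of control dam 3, those with high upper small intestine genes, the litter value for Ctsl was -0.17 and the female value 0.04. Ctsz, the carboxypeptidase cathepsin Z, had 669.5, 975 and 418 CPM in stressed males, against 847, 1009.9 and 728 CPM in control males. In females Ctsz had 934, 939.7 and 929 CPM in stressed females, against 848, 905 and 1306 CPM in control females, with the highest value again in control female 3. Its litter log2 fold change was -0.22 ± 0.15.

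Ctsb, the cysteine protease cathepsin B, had 1978, 2551 and 1262 CPM in stressed males, against 2693, 2536 and 1848 CPM in control males. In females Ctsb had 2221, 2450.5 and 2244 CPM in stressed females, against 2263, 2397 and 2626 CPM in control females, and the groups overlapped in both sexes. Ctsh, the aminopeptidase cathepsin H, had 95.3, 178 and 72.7 CPM in stressed males, against 104, 182 and 78.8 CPM in control males, with the same dam number 2 highest on both sides. In females Ctsh had 215, 176 and 169 CPM in stressed females, against 185, 147 and 256 CPM in control females. Ctsa, which protects the sialidase and the beta-galactosidase in a complex, and Ctsd, the chief aspartic protease, followed the same order in males, with 658, 1324 and 463 CPM for Ctsa in stressed males, against 874, 1399 and 845 CPM in control males. Ctsd had 449, 818 and 298 CPM in stressed males, against 606, 835 and 424 CPM in control males. Tpp1, a tripeptidyl peptidase, stayed between 285 and 359 CPM in 11 libraries and was at 215 CPM in control male 3. The log2 fold changes of Ctsb, Ctsd, Ctsh, Ctsa and Tpp1 in males were -0.29 ± 0.24, -0.25 ± 0.32, -0.08 ± 0.36, -0.35 ± 0.33 and 0.01 ± 0.18, none past the threshold. Without stressed male 2 those of Ctsb, Ctsd, Ctsh and Ctsa were -0.56, -0.76, -0.55 and -0.91. Without the 3 libraries rich in Yam1 they were 0.22, 0.38, 0.45 and 0.24, with stressed male 2 set against control males 2 and 3. For each of these genes stressed male 2 was near control male 2, and control male 3 was far lower. Ctsa, Ctsb, Ctsd and Ctsz each share part of their locus with another gene, and whether the counting used strand is not given in the labels.

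Of the glycosidases, which remove sugars from glycoproteins, glycolipids and glycosaminoglycans, Glb1, Hexa and Galc varied most in males. Glb1, the lysosomal beta-galactosidase, had 207, 433 and 166 CPM in stressed males, against 258, 503 and 242 CPM in control males. The females lay higher and closer together, with 468, 427 and 431 CPM in stressed females, against 471, 376 and 506 CPM in control females. Hexa, the alpha subunit of beta-hexosaminidase, had 527, 1049 and 378 CPM in stressed males, against 733, 1093 and 463 CPM in control males. In females Hexa had 1088, 1021 and 946 CPM in stressed females, against 1038, 837 and 1112 CPM in control females. Both genes were at the level of the females only in males 2 of each group. Fuca1, the alpha-fucosidase, had 721, 1024 and 417 CPM in stressed males, against 1056, 1079 and 744 CPM in control males, and 1036, 988 and 1055 CPM in stressed females, against 991, 962 and 1158 CPM in control females. Its male groups overlapped, with a log2 fold change of -0.41 ± 0.27, which became 0.17 without the 3 libraries rich in Yam1. That leaves stressed male 2 against control males 2 and 3, of which only control male 3 was lower than stressed male 2.

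Man2b1, the alpha-mannosidase, had 295, 485 and 243 CPM in stressed males, against 252, 511 and 288 CPM in control males. In females Man2b1 had 532, 506 and 519 CPM in stressed females, against 514, 459.9 and 416 CPM in control females, and the 2 highest males lay within that range. Manba, the beta-mannosidase, held a narrow range with 69.4, 56.5 and 71.5 CPM in stressed males, against 57.97, 63.8 and 55.7 CPM in control males. In females Manba had 56.2, 65.02 and 63.7 CPM in stressed females, against 61.6, 66.2 and 61.3 CPM in control females. Neu1, the sialidase that removes sialic acid from milk and cell glycans, had 722, 966 and 649 CPM in stressed males, against 1026, 997 and 451 CPM in control males. Of the males, control male 3 was thus lowest and control male 1 highest for Neu1, so that the stressed males lay within the range of the control males. In females Neu1 had 867, 918 and 858 CPM in stressed females, against 832, 848 and 904 CPM in control females, and its log2 fold change was -0.08 ± 0.27 in males and 0.03 ± 0.27 in females.

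Galc, the galactosylceramidase that degrades galactosylceramide, set the control dam 3 pups apart from all others. It had 191, 205 and 168 CPM in stressed males, against 189, 227 and 32.5 CPM in control males. In females it had 205, 225 and 217 CPM in stressed females, against 217, 198 and 93.7 CPM in control females. The 2 low values belong to littermates, the pups with high genes of the upper small intestine and of enterocytes after weaning. Which of these goes with low Galc was not tested. The other 10 libraries lay between 168 and 227 CPM. The log2 fold change of Galc was 0.33 ± 0.52 in males and 0.34 ± 0.52 in females, and -0.15 and 0.05 without both pups of that dam. Gla, the alpha-galactosidase A, had 118, 79.99 and 114 CPM in stressed males, against 157, 93.01 and 43.5 CPM in control males, and between 64.6 and 90.4 CPM in females. It was highest in the 3 libraries rich in Yam1 and lowest in control male 3. Gaa, Gusb and Naglu, which act on glycogen, glucuronic acid ends and heparan sulphate, were lowest in control male 3 with 161, 182 and 28.4 CPM, against at least 246, 317 and 37.5 CPM elsewhere. Idua, which removes iduronic acid, lay between 6.11 and 11.3 CPM and had 252 counts or fewer in any library, the thinnest depth of the set.

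The 3 sulphatases of glycosaminoglycan breakdown were among the 5 lowest genes of the set by FPKM. Arsb, which acts on dermatan sulphate, had 39.4, 31.3 and 33.9 CPM in stressed males, against 25.7, 30.5 and 21.1 CPM in control males. Every stressed male thus lay above every control male. The 2 highest males were stressed males 1 and 3, in which deviation rose with gene length, and the lowest was control male 3. Arsb has 3989 bases, and the part of length in this order was not tested. It also overlaps the noncoding gene Gm26527. In females Arsb had 30.6, 31.8 and 31.2 CPM in stressed females, against 31.00, 36.5 and 30.4 CPM in control females, and the groups overlapped. Its log2 fold change was 0.43 ± 0.15 in males (edgeR adjusted p = 0.752), -0.06 ± 0.15 in females and 0.50 ± 0.21 for the difference between them (adjusted p = 0.999). Over the 23 alternative settings the male value for Arsb stayed between 0.28 and 0.55 with adjusted p-values from 0.148 to 1, so it did not pass in any of them.

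Sgsh, which cuts heparan sulphate, had 24.7, 15.3 and 23.3 CPM in stressed males, against 19.2, 17.8 and 15.03 CPM in control males. In females Sgsh had 15.4, 16.4 and 16.04 CPM in stressed females, against 16.8, 22.6 and 13.8 CPM in control females, and no groups were separated. Its male log2 fold change was 0.28 ± 0.21, and it was -0.11 without the 3 libraries rich in Yam1. Ids, the iduronate sulphatase, lay between 40.3 and 56.5 CPM in all libraries, with a log2 fold change of -0.05 ± 0.14 in males and -0.07 ± 0.14 in females.

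Lipa, the acid lipase that frees cholesterol and fatty acids from lipoprotein lipids, ran opposite to Arsb in males. It had 183, 178 and 165 CPM in stressed males, against 199.7, 208 and 275 CPM in control males. All stressed males lay below all control males, and control male 3 was the highest library. In females Lipa had 182, 186 and 190.4 CPM in stressed females, against 155, 177 and 188 CPM in control females, and the groups overlapped. Its log2 fold change was -0.38 ± 0.14 in males (edgeR adjusted p = 0.752) and 0.10 ± 0.14 in females, and the difference was -0.48 ± 0.20 (adjusted p = 0.999). Without control male 3 the male value for Lipa was -0.22.

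The remaining genes of lipid breakdown showed the male pattern to unlike degrees. Psap, the precursor of the saposins that present glycolipids to hydrolases, had 563, 1011 and 423 CPM in stressed males, against 571, 977 and 782 CPM in control males. In females Psap had 1038, 1013 and 969 CPM in stressed females, against 999, 901 and 999 CPM in control females. Asah1, the acid ceramidase, had 102, 125 and 87.9 CPM in stressed males, against 89.6, 136 and 98.3 CPM in control males. Its females had 135, 128 and 129.8 CPM in the stressed group, against 135, 115 and 134 CPM in the control group. For both genes 1 male of each group reached the female level and the others did not. Ppt1, a thioesterase that removes palmitate from proteins, stayed between 95.7 and 129 CPM throughout. Smpd1, the acid sphingomyelinase, had 49.5, 39.9 and 49.9 CPM in stressed males, against 55.8, 38.9 and 21.7 CPM in control males, and so was highest in the libraries rich in Yam1, as Gla was.

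Of the membrane proteins, Lamp1 was the most abundant, and its low values were those of 2 of the 12 libraries. It had 949.8, 1505 and 695 CPM in stressed males, against 1276, 1542 and 1309.6 CPM in control males. Its female libraries had 1399, 1421 and 1378 CPM in the stressed group, against 1358, 1339 and 1568 CPM in the control group. Lamp1 was therefore low in stressed males 1 and 3 and level elsewhere, with a log2 fold change of -0.39 ± 0.24 in males (edgeR adjusted p = 0.760). Leaving out stressed male 2 gave -0.76 with an edgeR adjusted p of 0.0861. Leaving out the 3 libraries rich in Yam1 gave 0.08, with stressed male 2 between control male 3 and control male 2. Lamp2, its relative that also serves as a receptor in autophagy, stayed between 499.9 and 674 CPM. Scarb2, another glycoprotein of the lysosomal wall, had 80.5, 69.2 and 79.9 CPM in stressed males, against 63.2, 66.7 and 92.04 CPM in control males, and 69.5, 70.2 and 80.2 CPM in stressed females, against 70.97, 83.3 and 81.1 CPM in control females.

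Npc1 and Npc2 hand cholesterol on for export from the lysosome, and their values ran apart in stressed male 3. Npc1 is the longest gene of the set, with 5756 bases, against 3261 for Npc2. Deviation rose with gene length in stressed male 3, and the part of length was not tested. Npc2, the soluble partner, had 207, 421 and 139 CPM in stressed males, against 264, 454 and 174 CPM in control males. In females Npc2 had 484, 419 and 425 CPM in stressed females, against 438, 326 and 339 CPM in control females, with control females 2 and 3 lowest. Its log2 fold change was -0.22 ± 0.39 in males and 0.27 ± 0.39 in females, and the male value was -0.80 without stressed male 2. It was 0.42 without the 3 libraries rich in Yam1, where stressed male 2 lay below control male 2 and above control male 3. Npc1, the membrane partner, had 60.5, 40.9 and 63.4 CPM in stressed males, against 56.3, 50.2 and 41.7 CPM in control males, so that stressed male 3 was its highest and for Npc2 the lowest library. Cln3, a membrane protein lost in a human childhood neuronal storage disease, had 56.02, 84.1 and 43.1 CPM in stressed males, against 63.8, 92.6 and 28.8 CPM in control males. In females it had 88.4, 84.4 and 80.7 CPM in stressed females, against 76.5, 70.1 and 77.7 CPM in control females, and all stressed females lay above all control females, with a log2 fold change of 0.18 ± 0.34 (edgeR adjusted p = 1.00). Npc1 shares its locus with an antisense gene, and Cln3 overlaps Apobr.

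The channels and the transcription factor differed little between libraries. Mcoln3, a cation channel of endosomes and lysosomes found in the enterocytes of suckling rodents, had 338, 345 and 331 CPM in stressed males, against 345, 393 and 261 CPM in control males. In females Mcoln3 had 344, 378 and 349 CPM in stressed females, against 356, 349 and 369 CPM in control females. Control male 3 was low and the other 11 libraries lay together, with log2 fold changes of 0.02 ± 0.15 in males and -0.00 ± 0.15 in females. Mcoln1, the related channel through which calcium leaves the lysosome, lay between 91.1 and 132 CPM. Tfeb had 38.3, 46.1 and 49.7 CPM in stressed males, against 46.9, 44.7 and 46.1 CPM in control males. In females Tfeb had 50.7, 47.2 and 48.04 CPM in stressed females, against 47.6, 42.7 and 48.7 CPM in control females. Its 12 libraries thus kept within a narrow band, with log2 fold changes of -0.04 ± 0.12 in males, 0.07 ± 0.12 in females and 0.01 ± 0.08 over litters, and the level of its mRNA says nothing of where the protein was.

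**Figure D4:**
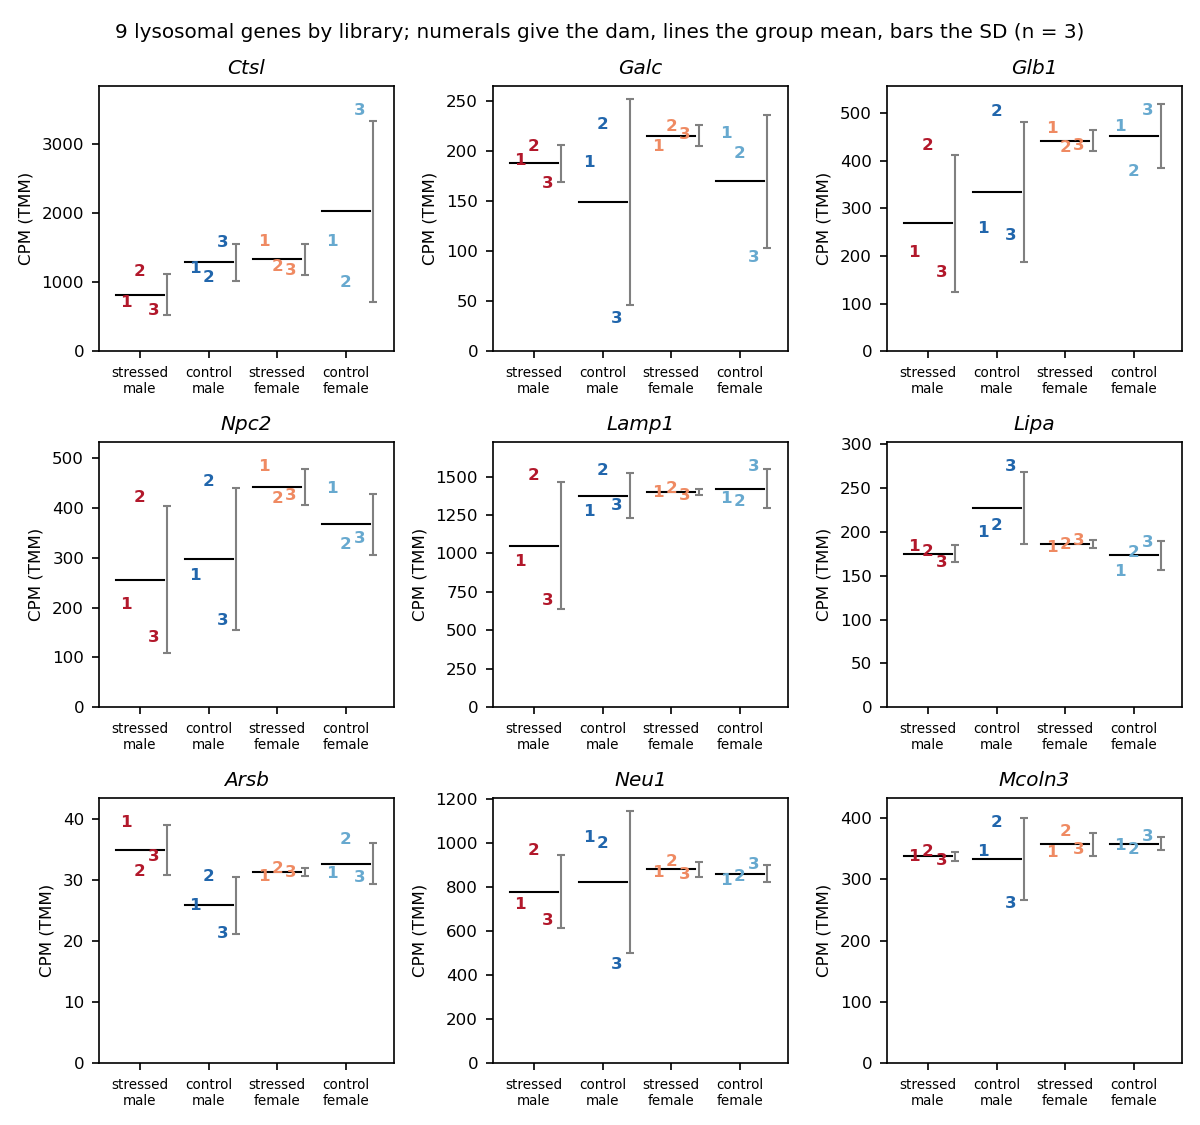
CPM (TMM scaled) of 9 lysosomal genes in every library, with stressed groups left of control groups, numerals giving the dam, horizontal lines the group mean and bars the SD (n = 3). Control female 3 stands out for Ctsl (3483 CPM), the pups of control dam 3 for Galc (32.5 and 93.7 CPM), and males 2 of both groups lie near the females for Glb1 and Npc2.

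Males had lower values than females for most lysosomal genes, but none passed the test. In males against females 7 genes lay above and 29 below 0, with a median log2 fold change of -0.16, where 50.6% of all genes lay below 0. By edgeR 0 of 36 genes had an adjusted p under 0.05, where 8 of 16102 genes did (0.0497%, of which 0.0373% higher and 0.0124% lower in males), and the smallest adjusted p was 0.411. Unadjusted p-values under 0.05 were reached by 7 genes with edgeR, 9 with DESeq2 and 10 with limma, against 11.98% of all genes with edgeR. No lysosomal gene separated the sexes, which 0.255% of all genes did. Ctsh averaged 118 ± 48.9 CPM in males, against 191 ± 38.8 CPM in females (SD, n = 6 each), and its log2 fold change was -0.69 ± 0.25 (edgeR adjusted p = 0.411). Man2b1 averaged 346 ± 120.0 CPM in males, against 491 ± 44.6 CPM in females, with -0.51 ± 0.20, and Glb1 301 ± 134 CPM in males, against 446 ± 45.1 CPM in females, with -0.58 ± 0.25. For Ctsl, Psap, Asah1 and Ctsa the log2 fold changes were -0.67 ± 0.28, -0.46 ± 0.20, -0.28 ± 0.12 and -0.52 ± 0.24.

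1 library decided whether any of these genes passed between the sexes. Without stressed male 2, one of the 2 males whose lysosomal genes were at the level of the females, 7 genes passed, all lower in males (Psap, Man2b1, Ctsd, Ctsa, Hexa, Ctsh and Glb1, edgeR adjusted p from 0.0366). In that fit 8.44% of all genes passed, and 2.62% passed as lower in males. Without the 3 libraries rich in Yam1 none passed and the median was -0.10. All male libraries were smaller than all female libraries in total counts, so that library size and sex cannot be told apart here.

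The spread among males was larger than among females for 35 of the 36 genes. All genes tested leaned the same way, with a median coefficient of variation of 23.5% in males, against 13.4% in females. The share of all genes with a larger spread in males was not counted. Over the 6 males the coefficient of variation had a median of 26.9% (range 8.39% to 47.6%), where genes with a mean of at least 10 CPM had 18.8%, and 25 of the 36 lay above that median. Over the 6 females it had a median of 7.87% (range 3.36% to 54.9%), where the same genes had 10.3%, and 11 of the 36 lay above. The most variable in males were Npc2 (47.6%), Glb1 (44.6%), Hexa (43.2%), Ctsh (41.3%) and Galc (41.2%), and the least were Tfeb (8.39%), Ppt1 (9.40%), Lamp2 (9.70%), Manba (10.9%) and Ids (11.4%). Ctsl was the exception, with 34.1% in males and 54.9% in females, with its highest female value in control female 3. Across the 36 genes, which share their libraries, the male coefficient had a Spearman rho of 0.42 with mean FPKM, 0.29 with GC content and -0.16 with gene length. The 11 genes with CACGTG in the promoter window had a median male coefficient of 34.1% (15.4% to 44.6%), against 20.9% (8.39% to 47.6%) for the 21 with a window and no such letters. The ranges of these 2 sets overlapped, and no test was made.

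**Figure D5:**
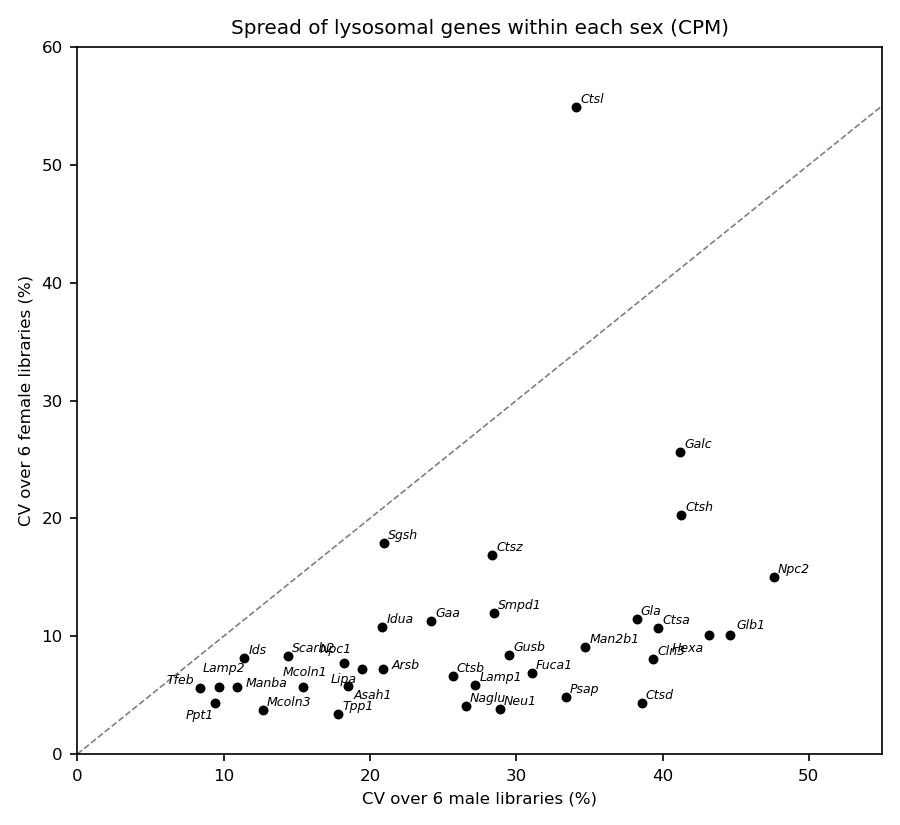
Coefficient of variation (%) of CPM of each lysosomal gene over the 6 male libraries (horizontal) and the 6 female libraries (vertical), with the dashed line marking equal spread. All genes but Ctsl lie below the line, Npc2 lies farthest right at 47.6% in males, and Tfeb lies at the lower left.

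Other genes of the lysosomal pathway were followed in lists that are not members of the set, and 0 of the 94 genes tested passed by edgeR, DESeq2 or limma in any stress comparison. At an unadjusted p under 0.05 there were 3, 5 and 3 of them in males by these tools, where 6.38%, 7.06% and 5.83% of all genes reached that level. For the difference between the male and female changes there were 2, 2 and 2, where 2.15%, 2.45% and 1.75% of all genes did. None did in females or litters by any of the 3, where 0.298% and 1.36% of all genes did by edgeR. Of the V-ATPase list, the pump that acidifies the lysosome, 17 of 20 genes were tested, with a litter median of -0.04 and 5 above and 12 below 0. Atp6v0a1, a membrane subunit, had 324, 193 and 387 CPM in stressed males, against 259.6, 213 and 172 CPM in control males, and was highest in stressed male 3. Atp6v1h, Atp6v1b2 and Atp6v0e had litter log2 fold changes of -0.15, -0.10 and -0.11. For tagging and sorting by mannose 6-phosphate, 3 of 7 genes lay above and 4 below 0 over litters. Gnptab, the enzyme that makes the tag, had a male log2 fold change of 0.28 ± 0.11 (edgeR adjusted p = 0.752), and Igf2r, the large receptor for the tag, had 632, 351 and 955 CPM in stressed males, against 579, 399 and 441 CPM in control males. Among males Igf2r was thus highest in stressed males 3 and 1, with control male 1 close to stressed male 1. In these stressed males the deviation of a gene rose with its length, and the part of length was not tested. Sumf1, which activates sulphatases, and Nagpa, which uncovers the tag, had litter log2 fold changes of -0.10 and -0.05.

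The 27 other hydrolases and activators had a litter median of -0.02, with 11 above and 16 below 0. Among them Hgsnat, which acetylates heparan sulphate, was at 0.13 ± 0.08, Ctsk at 0.23 ± 0.15 and Ctso at -0.14 ± 0.10. The 19 other membrane proteins had a median of -0.04, with 6 above and 13 below 0, and Ctns (the cystine exporter), Mcoln2 and Slc36a1 were at -0.12, -0.37 and -0.12. In the list of the TFEB family and its nutrient control 7 of 18 genes lay above and 11 below 0 over litters, with a median of -0.02. Mtor, the kinase of mTORC1, had 88.3, 54.3 and 121 CPM in stressed males, against 56.6, 51.8 and 55.6 CPM in control males. It was high in stressed males 1 and 3, in which deviation rose with gene length, and the part of length was not tested. The male log2 fold change of Mtor was 0.68 ± 0.22 (edgeR adjusted p = 0.752). In females Mtor had 48.1, 53.5 and 49.7 CPM in stressed females, against 51.5, 62.3 and 51.4 CPM in control females. Rptor, Fnip2 and Rragd were at 0.16, 0.19 and -0.13 over litters.

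Of 6 genes of the endocytic machinery of suckling enterocytes, 2 lay above and 4 below 0 over litters, with a median of -0.08. Fcgrt, the neonatal Fc receptor that carries milk antibodies across the gut wall, had 569, 903 and 377 CPM in stressed males, against 839.7, 857 and 4159 CPM in control males. In females Fcgrt had 737, 859 and 733 CPM in stressed females, against 821, 842 and 2045 CPM in control females. Its high values were those of control dam 3, and the log2 fold changes of -1.66 ± 0.61 in males and -1.12 ± 0.49 over litters did not pass. Amn and Dab2, parts of the uptake machinery, and Prdm1, the repressor that keeps the suckling state, had litter log2 fold changes of -0.16, -0.09 and 0.11.

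Markers of other cells were set beside these values because macrophages and enterocytes both express lysosomal genes. Of 13 macrophage genes 12 were in the table, and they summed to 458, 523 and 454 CPM in stressed males, against 457, 518 and 672 CPM in control males. In females they summed to 503, 491 and 495 CPM in the stressed group, against 500.3, 495 and 606 CPM in the control group. Csf1r, the macrophage growth factor receptor, lay between 138 and 210.2 CPM and was at 0 in none, and the highest sums were those of control dam 3. The median macrophage gene deviated from its mean over 12 libraries by -0.08, 0.21 and -0.43 on the log2 scale in stressed males, against -1.52, 0.08 and 0.55 in control males. Over litters 1 macrophage gene lay above and 11 below 0, with a median log2 fold change of -0.22, and by edgeR none had an adjusted or unadjusted p under 0.05. Smooth muscle genes summed to 4429 to 5191 CPM in stressed males, against 7775, 2771 and 3602 CPM in control males. Enteric neuron genes summed to between 58.1 and 152 CPM over the 12 libraries and exocrine pancreas genes to between 8.37 and 68.8 CPM. Genes that mark enterocytes after weaning summed to 1132 CPM in the male pup of control dam 3 and 92.6 CPM in its sister, and to at most 22.98 CPM in the other 10 libraries. Epithelial genes summed to 4379 to 4722 CPM in stressed males, against 3663 to 6477 CPM in control males. The part of cell composition in the values of the lysosomal genes was not tested.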

How the data were processed

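Total RNA of ileum was sequenced in 12 libraries, 1 per pup, in 4 groups of 3. The deposited counts are whole reads per gene for 35275 genes. A second table of the authors gives FPKM values of the same libraries. The submitters' processing notes name the builds GRCm38 and mm10 and the tools HTSeq 0.6.1, STAR 2.5, TopHat, edgeR 3.16.5 and DESeq2. Neither the annotation release nor the strandedness of counting is given in the sources used here, and 12 of the 36 genes overlap another gene. All 36 gene identifiers matched GENCODE M21 by symbol and place. Library totals ran from 16423523 to 22975526 counts.

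Counts were fitted with edgeR 4.0.16 under R 4.3.3, after TMM scaling and filterByExpr, with its quasi-likelihood F test, 1 fit for the 4 groups and 1 for litters, where the counts of littermates were added up and each dam was 1 replicate. Adjusted p-values are those of Benjamini and Hochberg over all genes tested, and the threshold was 0.05, and every lysosomal gene passed the filter on low counts. CPM values are scaled by TMM, log2 CPM used a prior count of 2, and a positive log2 fold change is higher in stressed pups, or in males between the sexes. Alternatives were median-ratio size factors, no filter on low counts, a minimum mean of 1 CPM, DESeq2 1.42.0, limma 3.58.1 on log2 FPKM with a pseudocount of 1 or 0.1, 1 sex alone, 12 pups with sex as a covariate, the replicate block, each library or litter left out, both pups of control dam 3 left out, and the 3 libraries rich in Yam1 left out. A correction for gene length (loess, span 0.5) was added after seeing the data.

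The genes, the lists and the alternatives were chosen with earlier results of these data known. Values in every library are given for the 6 genes of smallest unadjusted p in each comparison, the 6 of highest mean FPKM, and Tfeb, Mcoln3, Neu1, Lamp1 and Npc2. From each pathway list the 4 genes of smallest unadjusted p over litters are named, and from lists of cell types or gut regions those of highest CPM; results for some genes so chosen are not reported here. Ctsa, Ctsd, Gla, Smpd1, Npc1, Cln3 and the genes outside these rules are named after their values were seen. The number in the labels is that of the dam, so it pairs littermates where the sexes or their changes are compared, but not stressed with control dams. Deviations from the group means correlated across genes at -0.362 to 0.545 for littermates, and at -0.329 to 0.306 for stressed and control pups that share a number.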

Additional observations from a re-analysis of the deposited data

How the results depend on the processing

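The count of lysosomal genes past the threshold was 0 under every alternative in the 4 stress comparisons, leaving out each library or litter included. Between the sexes it was also 0, except that it ran from 0 to 7 when each library was left out, with 7 genes lower in males without stressed male 2, a fit in which 8.44% of all genes passed and 2.62% were lower in males. The medians moved more. In males the median log2 fold change was -0.04 and became 0.22 without the 3 libraries rich in Yam1, which leaves stressed male 2 against control males 2 and 3. In females it was -0.01 and became 0.028 with limma on log2 FPKM at a pseudocount of 1 or 0.1, and 0.049 without both pups of control dam 3. For the difference between changes it was -0.06, and became -0.26 without both pups of control dam 3 and 0.24 without the libraries rich in Yam1. The cause was not tested. With each library left out the median ran from -0.21 to 0.09 in males, from -0.039 to 0.053 in females, from -0.23 to 0.11 for the difference and from -0.22 to -0.07 between the sexes, and with each litter left out from -0.09 to 0.01. With the length correction, chosen after seeing the data, no gene passed, and the medians were -0.08, -0.02, -0.08, -0.02 and -0.16 in the order males, females, difference, litters and sexes.

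With the replicate block no gene passed in any comparison. Between the sexes and for the difference this block joins littermates. In males, females and litters it joins stressed and control dams of the same number, which the labels do not pair. The medians with the block were -0.04 in males, -0.01 in females, -0.05 for the difference, -0.03 over litters and -0.19 between the sexes, and the block changed no call.

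Where a fit leaves 1 pup in a group, that pup is assumed to vary like the other groups. Depth limits the precision of the lysosomal genes least where counts are high, and the lowest count of any of them in a library was 94.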
